A study of Rattus norvegicus with 31 samples.

Results

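Oxidative phosphorylation genes were read on rat blood cell arrays through every probe whose name in the scanner files begins with Ndufa, Ndufb, Ndufc, Ndufs, Ndufv, Uqcr, Cox4 to Cox8 or Atp5, or is Sdha, Sdhb, Sdhc or Sdhd. The rule took 101 of 41012 probes. These carry 85 gene names of the scanner files: 39 of complex I, 4 of complex II, 8 of complex III, 17 of complex IV and 17 of complex V. The whole array, counted by current gene symbols instead, carries 16132. The rule also took 13 probes of 10 names that are not subunits, namely the Ndufaf assembly factors, Cox7a2l, Atp5s, Atp5sl and the pseudogene Cox6c-ps1. These are counted with the others and described apart, which leaves 88 probes of 75 subunit names. In 16 cases, all of complex V, the array's name is an older one (Atp5b is now Atp5f1b), and the names of the files are kept here.

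The samples were peripheral blood mononuclear cells, the lymphocytes and monocytes of blood, from adult rats. In CR-L (13 arrays), the dams' food had been cut by 20% on days 1 to 12 of gestation. Their pups were then dosed with leptin until postnatal day 21, at 1 to 43.8 ng, which stands for 5 times what the milk supplies in a day. CR rats (11 arrays) came from dams restricted in the same way and had a normal lactation without leptin. WT rats (7 arrays) are the controls of the protocol, from unrestricted dams and without leptin. The protocol names female and male offspring, and all groups had chow freely for 4 months before blood was drawn. The labels give no strain. Since 31 samples came from at most 16 litters, and neither litter nor sex is given per sample, some animals share a dam and p-values across samples can be too small. Each array set 1 sample in red against 1 pool in green made from 5 samples of each group, and all levels below are log2 ratios of sample over pool.

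The mitochondrial respiratory chain passes electrons taken from NADH (complex I) and succinate (complex II) through complexes III and IV to oxygen, and pumps protons as it does so. Complex V, the ATP synthase, lets the protons flow back and makes ATP. Resting lymphocytes draw much of their ATP from this chain, and monocytes and lymphocytes turn more to glycolysis when activated. Most subunits are encoded in the nucleus, and these are the ones on the array; the 13 subunits encoded by mitochondrial DNA were not analysed here.

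Of the 101 probes, 95 were well above background in red on at least 7 of the 31 arrays and were tested, 47 of complex I, 4 of complex II, 9 of complex III, 16 of complex IV and 19 of complex V. Of these, 94 were above background on all 31 arrays. No member was saturated on any array. Median red intensity lay between 69.8 and 235 per array, with WT 6 highest and the next array at 93.9. One array stood apart from the others: on CR-L 5, 26.4% of the 26716 probes tested lay outside the range of the other 30 arrays, against 12.1% on the next such array, WT 6. Differences of members that it moved most are given with and without it.

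Expression of the respiratory chain was nearly level across the groups. In CR-L against WT, 1 of 95 member probes passed an adjusted p of 0.05 (limma, Benjamini-Hochberg over all 26716 probes), a Cox7c probe that was lower in CR-L, while 3.47% of all probes passed, 2.03% higher and 1.44% lower. In CR against WT no member passed, against 0.479% of all probes (0.374% higher and 0.105% lower), and in CR-L against CR none did, against 0% of all probes. The shares over all probes rest on single arrays in part: with each left out, 492 to 1292 probes passed for CR-L against WT, where 927 did with all arrays, and 20 to 245 for CR against WT, where 128 did. The comparisons of CR-L and of CR with WT use the same WT arrays and are not independent. At an unadjusted p under 0.05 the counts were 13 of 95 for CR-L against WT (13.7%, all probes 16.5%), 8 for CR against WT (8.42%, all probes 12.2%) and 2 for CR-L against CR (2.11%, all probes 2.22%). Without CR-L 5 that last count was 4, the 2 probes being joined by Ndufv2 and Ndufaf7. No member had groups that did not overlap, in any of the comparisons, against 0.176% of all probes for CR-L against WT, 0.142% for CR against WT and 0% for CR-L against CR. In blood as in any mixed sample, fewer cells of a type and less RNA per cell cannot be told apart.

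The median difference of the member probes was -0.0028 for CR-L against WT, where that of all probes was 0.0094. It was 0.013 for CR against WT, with 0.011 over all probes, and -0.0054 for CR-L against CR, with -0.0045 over all probes. The 95% intervals limit how large an undetected difference could be, as far as the arrays are independent. They take no account of shared dams and can be too narrow. For CR-L against WT the interval lay within 0.25 on the log2 scale, or 1.19-fold, for 80 of 95 members (84.2%, all probes 67%). For CR against WT it did so for 82 (86.3%, all probes 68.5%) and for CR-L against CR for 86 (90.5%, all probes 85.6%). Within 0.5, or 1.41-fold, lay 93, 93 and 94 members in these comparisons (97.9%, 97.9% and 98.9%). Most other probes did too, with 94.2%, 94.4% and 97.3% of all probes within 0.5. The median SD over the 31 arrays was 0.11 for members and 0.14 for all probes. The plot of differences shows the intervals probe by probe.

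**Figure D1:**
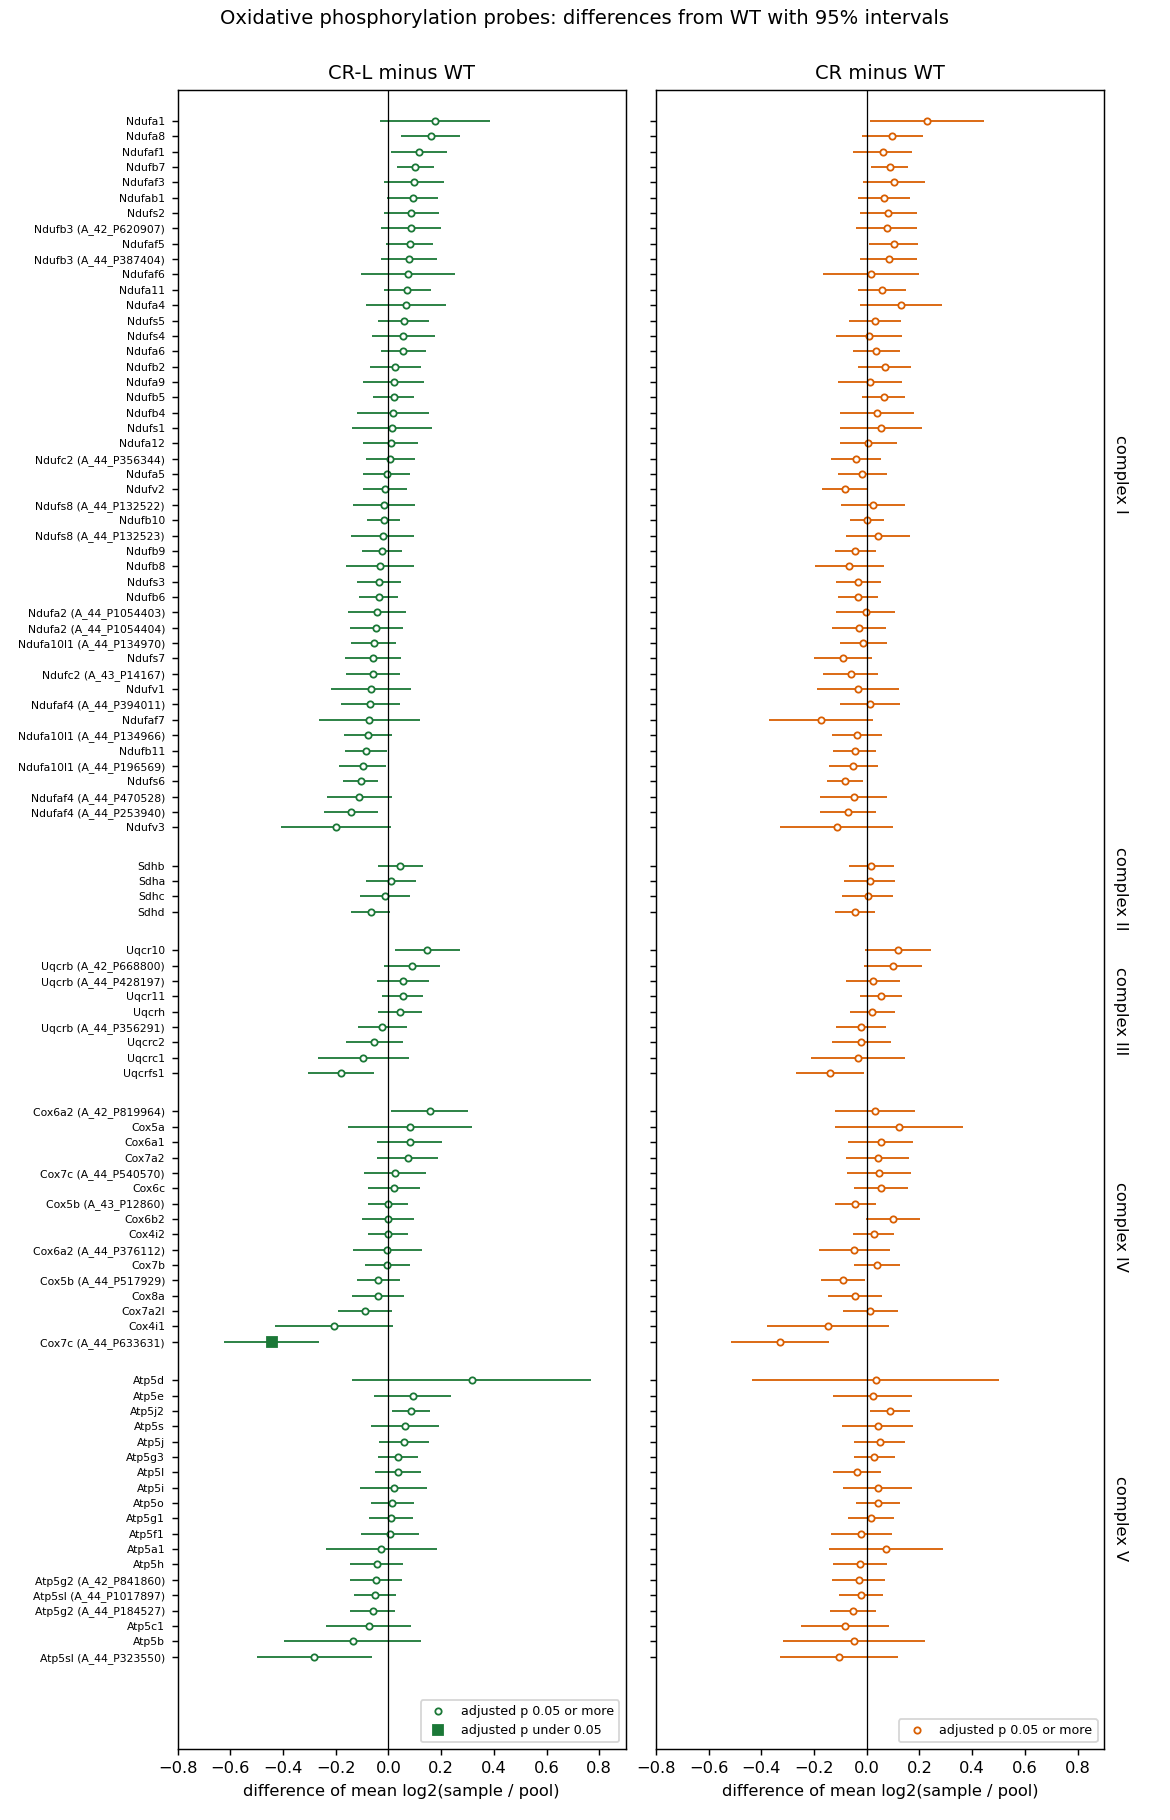
Differences of mean log2(sample / pool) from WT for the 95 tested member probes, by complex, CR-L minus WT on the left and CR minus WT on the right; points are differences, lines are 95% intervals, and filled squares mark an adjusted p under 0.05. One probe is marked, the lower Cox7c probe at -0.44 in CR-L minus WT, and most intervals lie within 0.25 of 0.

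Taken by complex, the subunits stayed close to the pool in every group, and so did the tested probes as a whole. The array median of all tested probes averaged 0.014 ± 0.0037 in CR-L, 0.015 ± 0.0058 in CR and 0.0060 ± 0.018 in WT (SD). Levels near 0 follow in part from the design, as the pool held samples of each group and loess centres each array. The per-array median of complex I subunits averaged -0.0030 ± 0.047 in CR-L, -0.014 ± 0.059 in CR and -0.028 ± 0.039 in WT (SD). For complex III it averaged -0.012 ± 0.044 in CR-L, -0.018 ± 0.033 in CR and -0.0084 ± 0.086 in WT, and for complex IV 0.0046 ± 0.027 in CR-L, 0.011 ± 0.033 in CR and -0.0017 ± 0.029 in WT. The groups overlapped in each complex, complexes II and V included. The lowest array median of complex I, -0.17, was that of CR 1.

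**Figure D2:**
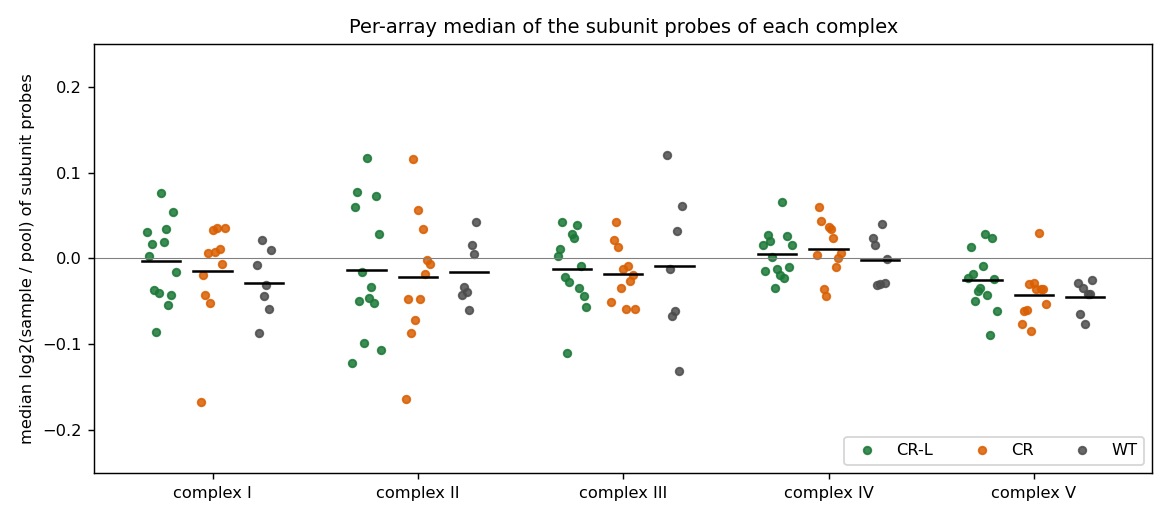
Median log2(sample / pool) of the subunit probes of each complex, 1 point per array, for CR-L (13), CR (11) and WT (7), with a bar at each group's mean. The groups overlap in all 5 complexes, and the lowest complex I point is array CR 1 at -0.17.

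Cox7c encodes a small accessory subunit of cytochrome c oxidase, complex IV. The array reads it with 2 probes, which gave different results. The first, whose sequence is shown because it is the member that passed, lies on rat chromosome 2 (build rn4, minus strand).
Cox7c A_44_P633631: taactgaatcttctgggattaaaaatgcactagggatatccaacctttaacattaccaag
It stands at chr2:15254519-15254578 and is annotated in the files to a sequenced cDNA. The second is annotated to the reference Cox7c mRNA. Its 60 bases are spread over 862 bases of the same strand, chr2:15254139-15255000, as for a probe that crosses a splice junction. The first probe lies unbroken inside that span. An mRNA that holds the second probe's 60 bases in 1 run cannot also hold all 60 bases of the first probe from this place. By their positions the 2 probes therefore do not both match such an mRNA in full. Which RNA the first probe reads was not tested.

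The first Cox7c probe ranged from -0.58 to 0.19 in CR-L with a median of -0.26, from -0.44 to 0.14 in CR with a median of -0.028, and from 0.051 to 0.32 in WT with a median of 0.27. Of the CR-L arrays 11 of 13 lay below the lowest WT array, and of the CR arrays 9 of 11. The mean was 1.36-fold lower in CR-L than in WT (-0.44 ± 0.088, 95% interval -0.62 to -0.26, limma adjusted p = 0.00381). CR stood at -0.33 ± 0.091 against WT and did not pass (adjusted p = 0.0825), and CR-L at -0.11 ± 0.077 against CR. On each of the 7 slides with a WT array, CR-L was below WT (-0.72 to -0.037), and so was CR (-0.62 to -0.18). Without CR-L 5 the difference between CR-L and WT was -0.41 ± 0.086 (adjusted p = 0.00564). With the mean levels of the erythroid, platelet, B cell and granulocyte lists as covariates it was -0.39 ± 0.11 and no longer passed (adjusted p = 0.0735).

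The second Cox7c probe ranged from -0.19 to 0.26 in CR-L, from -0.057 to 0.24 in CR and from -0.17 to 0.25 in WT, so that all groups overlapped. Its difference between CR-L and WT was 0.024 ± 0.058 (95% interval -0.094 to 0.14, limma adjusted p = 0.896), and between CR and WT 0.047 ± 0.060. Within an array, the first probe minus the second averaged -0.25 ± 0.24 in CR-L, -0.16 ± 0.20 in CR and 0.21 ± 0.10 in WT (SD). The lower level in CR-L was measured with 1 of the 2 probes of this gene.

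**Figure D3:**
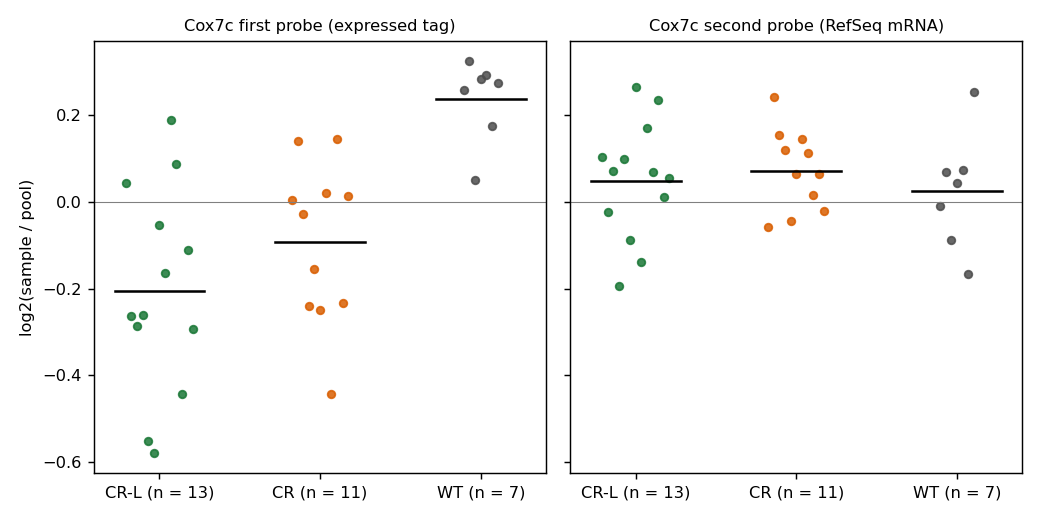
Log2(sample / pool) of the 2 Cox7c probes on each array of CR-L (13), CR (11) and WT (7); points are arrays and bars are group means. With the first probe, 11 of 13 CR-L arrays lie below the lowest WT array at 0.051, while the second probe's groups overlap.

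Of the other complex IV subunits none passed. Cox4i1, the widely expressed form of a regulatory subunit, ranged from -1.12 to 0.21 in CR-L (median -0.079), from -0.29 to 0.32 in CR (median -0.091) and from -0.23 to 0.27 in WT (median 0.11). Its CR-L and WT arrays overlapped, and its difference, -0.21 ± 0.11, was -0.12 ± 0.071 without CR-L 5. Cox5b, a zinc-binding subunit, was read by 2 probes, at -0.038 ± 0.039 and -0.0028 ± 0.037 between CR-L and WT. With the red channel alone the first was at -0.22 and passed (limma adjusted p = 0.0297). It stood at -0.090 ± 0.041 between CR and WT (limma unadjusted p = 0.0333, adjusted p = 0.355).

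Isoforms known from other tissues were measured beside their common partners. Cox4i2, the lung isoform, was above background on all arrays and differed by -0.0033 ± 0.037 between CR-L and WT. Cox6a2, the heart and muscle isoform, was read by 2 probes with unlike differences between CR-L and WT, 0.16 ± 0.072 and -0.0041 ± 0.064, while the common Cox6a1 stood at 0.080 ± 0.060. Cox6b2, the testis isoform, was above background on 30 arrays and ranged from -0.14 to 0.19 in CR-L, -0.036 to 0.36 in CR and -0.14 to 0.11 in WT. All its groups overlapped; CR-L against CR gave one of the 2 member probes with an unadjusted p under 0.05 (-0.10, p = 0.0203, and -0.53 with the scanner's own log ratio), the other being Cox7a2l, a supercomplex factor (-0.10, p = 0.0256, and -0.071 with p = 0.0441 without CR-L 5). Cox8b of muscle and Cox8c of testis were above background on 2 and 3 arrays and were not tested, nor was Cox7b2, which was above it on 0. Cox8a, the common form, differed by -0.040 ± 0.049 and Cox7a2 by 0.072 ± 0.056 between CR-L and WT. Ndufa4, filed by its name under complex I and now counted with complex IV, differed by 0.067 ± 0.074.

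Complex I has the most members, and none of its 47 probes passed in any comparison. Ndufs6, a zinc-binding subunit of the NADH-oxidising arm, came closest. It ranged from -0.094 to 0.14 in CR-L (median 0.019), from -0.029 to 0.12 in CR (median 0.058) and from 0.10 to 0.16 in WT (median 0.13). The WT arrays lay in a narrow band at the top, which some CR-L and CR arrays reached. The difference between CR-L and WT was -0.11 ± 0.032 (95% interval -0.17 to -0.040, limma adjusted p = 0.0607), and without CR-L 1 it was -0.11 ± 0.032 with an adjusted p of 0.0419. Without CR-L 5, its lowest array, it was -0.096 ± 0.031 (adjusted p = 0.0786).

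Ndufb7 and Ndufa8, accessory subunits held by twin cysteine motifs, lay on the other side. Ndufb7 ranged from -0.0051 to 0.16 in CR-L (median 0.066), from -0.078 to 0.15 in CR (median 0.074) and from -0.067 to 0.021 in WT (median -0.034). Most CR-L and CR arrays lay above the WT arrays, with an overlap near 0. It differed by 0.10 ± 0.034 between CR-L and WT (limma adjusted p = 0.0876) and by 0.086 ± 0.035 between CR and WT (adjusted p = 0.285). Ndufa8 ranged from -0.18 to 0.15 in CR-L, -0.30 to 0.10 in CR and -0.30 to 0.019 in WT, overlapping throughout, and differed by 0.16 ± 0.055 between CR-L and WT (adjusted p = 0.105).

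Ndufa1, an accessory subunit needed for assembly of the membrane arm, had the largest difference of complex I between CR and WT, 0.23 ± 0.11 (limma unadjusted p = 0.0377, adjusted p = 0.371). The core subunits that take up electrons were near level: between CR-L and WT, Ndufv1, which binds NADH and flavin, differed by -0.066 ± 0.074, and the iron-sulfur subunits Ndufs1 and Ndufv2 by 0.014 ± 0.074 and -0.013 ± 0.041. CR-L 5 was the lowest array of both Ndufv1 and Ndufs1. Without it Ndufv1 differed by -0.030 ± 0.066 and Ndufs1 by 0.058 ± 0.060. Ndufv2 gave the smallest p of complex I in CR-L against CR (0.071, unadjusted p = 0.0544; 0.083 and p = 0.0221 without CR-L 5). Without that array the assembly factor Ndufaf7 had a smaller one (0.17, p = 0.00525), against 0.10 and p = 0.222 with it. Of the assembly factors taken by the rule, the 3 Ndufaf4 probes stood at -0.14, -0.11 and -0.069 between CR-L and WT, with the smallest adjusted p at 0.117; without CR-L 5 they stood at -0.15, -0.14 and -0.056.

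All 4 subunits of complex II, which also works in the citric acid cycle, were tested, and none passed. Between CR-L and WT the flavoprotein Sdha differed by 0.010 ± 0.046, the iron-sulfur subunit Sdhb by 0.046 ± 0.041 and the membrane anchor Sdhc by -0.012 ± 0.046. The other anchor, Sdhd, ranged from -0.36 to -0.15 in CR-L (median -0.24), from -0.29 to -0.14 in CR (median -0.21) and from -0.26 to -0.087 in WT (median -0.17). Every group lay below the pool and the groups overlapped, with a difference of -0.067 ± 0.036 between CR-L and WT (limma adjusted p = 0.358). The intervals of all 4 lay within 0.25 in each comparison.

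In complex III none of 9 probes passed. Uqcrfs1, the Rieske iron-sulfur protein, ranged from -0.46 to 0.12 in CR-L (median -0.043), from -0.13 to 0.11 in CR (median -0.059) and from -0.067 to 0.22 in WT (median 0.062). The groups overlapped, and CR-L differed from WT by -0.18 ± 0.062 (limma adjusted p = 0.107); with slide as a block it was -0.20 ± 0.058 with an adjusted p of 0.0487. Without CR-L 5, its lowest array, it was -0.15 ± 0.053 (adjusted p = 0.137). CR differed from WT by -0.14 ± 0.064 (adjusted p = 0.364).

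Uqcr10, a small subunit beside cytochrome c1, was above the pool on nearly all arrays, at 0.027 to 0.57 in CR-L, 0.13 to 0.38 in CR and -0.021 to 0.40 in WT. Its groups overlapped and CR-L differed from WT by 0.15 ± 0.060 (limma adjusted p = 0.186). The core protein Uqcrc1 differed by -0.096 ± 0.085, and by -0.040 ± 0.064 without CR-L 5. Uqcrq was above background on 2 arrays and was not tested.

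In complex V, the ATP synthase, none of 19 probes passed. Atp5j2, subunit f of the membrane part, ranged from -0.092 to 0.15 in CR-L (median 0.097), from 0.018 to 0.19 in CR (median 0.077) and from -0.10 to 0.13 in WT (median -0.022). Its groups overlapped, with differences of 0.085 ± 0.036 between CR-L and WT (limma adjusted p = 0.206) and 0.088 ± 0.037 between CR and WT (adjusted p = 0.308). Atp5l, subunit g, differed by 0.037 ± 0.043 between CR-L and WT and by 0.073 between CR-L and CR (unadjusted p = 0.0609).

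Atp5sl, no subunit despite its name, was read by 2 probes. The first ranged from -1.01 to 0.045 in CR-L (median -0.18), from -0.21 to 0.13 in CR (median -0.091) and from -0.51 to 0.29 in WT (median 0.063). The WT value of -0.51 was that of WT 7, and the next WT array was at 0.014. CR-L differed from WT by -0.28 ± 0.11 (limma adjusted p = 0.153), and without WT 7 by -0.37 ± 0.10 (adjusted p = 0.0333). The second probe stood at -0.052 ± 0.039.

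A single array, CR-L 5, lay far from the others in members of several complexes. On it 13 of 95 members lay more than 0.5 from the pool, 12 lower and 1 higher, where the other arrays had 0 to 3 such members. Over all tested probes the share beyond 0.5 was 12.3% on CR-L 5 and 0.371% to 5.44% on the other arrays. Of the 95 members, 20 lay below and 6 above all other arrays there. Over all tested probes 26.4% lay outside the range of the other arrays, so such values were not particular to the members. The head subunits alpha, beta and gamma were low: Atp5a1 was at -0.97, Atp5b at -1.16 and Atp5c1 at -0.81. Subunit delta, Atp5d, was at 2.82, where no other array exceeded 0.31, and subunit epsilon, Atp5e, was at 0.15, inside the range of the others.

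Subunits of other complexes were low on the same array. Cox4i1 was at -1.12, the complex III core protein Uqcrc1 at -0.84 and the complex I core subunit Ndufs1 at -0.60. The assembly factor Ndufaf7 was at -0.86. The B cell list had its lowest CR-L mean on this array, -0.75, and so did the monocyte list, -0.51; their part in these values was not tested. Without CR-L 5, Atp5d differed by 0.11 ± 0.053 between CR-L and WT, against 0.32 ± 0.22 with it, and Atp5b by -0.047 ± 0.091, against -0.14 ± 0.13 with it. Atp5a1 differed by 0.040 ± 0.078 without it, against -0.027 ± 0.10 with it, Atp5c1 by -0.023 ± 0.059, against -0.076 ± 0.080, and Ndufaf7 by -0.0050 ± 0.064, against -0.072 ± 0.094. The count of members past the threshold was 1 without this array as well, with 872 probes called in all against 927 with it.

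**Figure D4:**
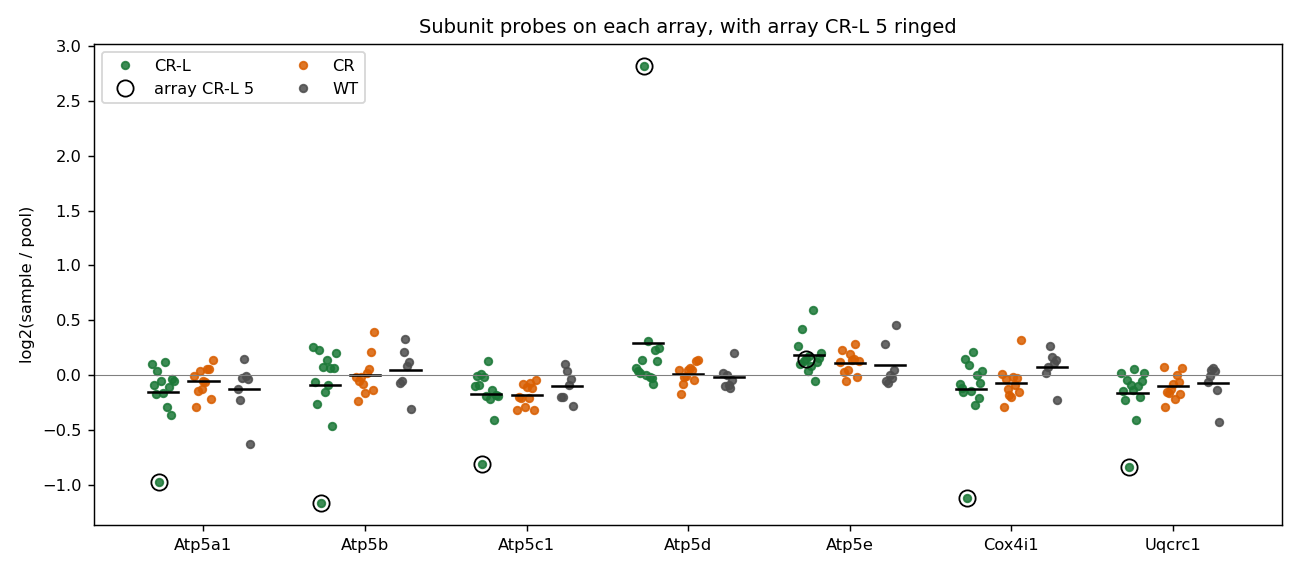
Log2(sample / pool) of subunit probes on each array of CR-L, CR and WT, with array CR-L 5 ringed. Atp5d is at 2.82 on the ringed array and Atp5b at -1.16, outside the range of the other arrays.

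For 12 genes 2 or 3 probes were tested, which shows how far 1 probe stands for a gene. Between CR-L and WT, 8 of the 12 had probes of the same sign and 4 had opposite signs (Ndufc2, Uqcrb, Cox6a2 and Cox7c). Without CR-L 5 the Ndufc2 probes shared a sign, at -0.056 and -0.0064. The range between a gene's probes was under 0.1 in 8 genes, and went from 0.0025 for Ndufa2 to 0.47 for Cox7c. The next widest were Atp5sl at 0.23 and Cox6a2 at 0.16.

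**Figure D5:**
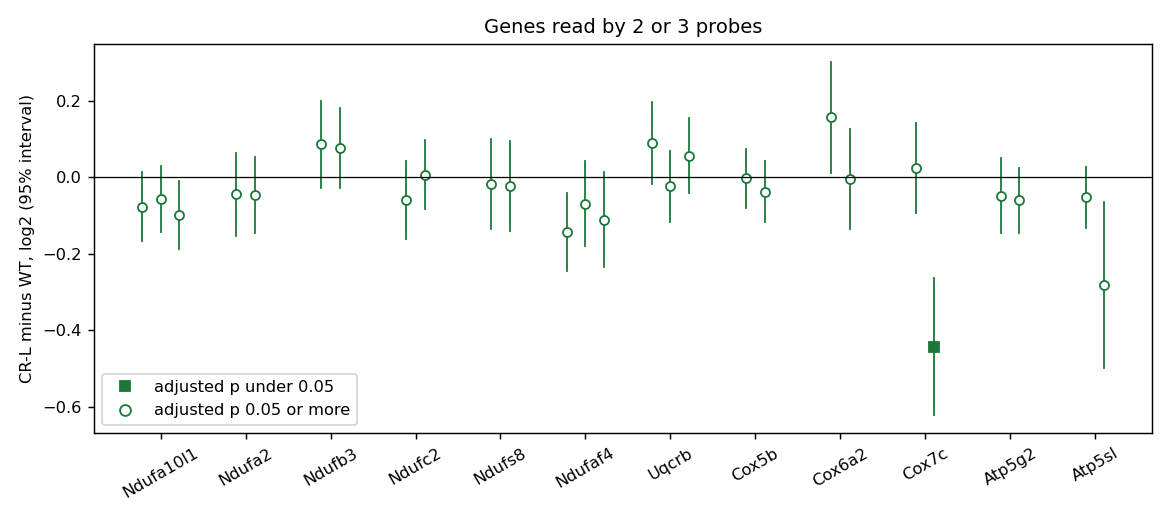
CR-L minus WT difference of log2(sample / pool), with 95% intervals, for each probe of the 12 genes read by 2 or 3 tested probes; a filled square marks an adjusted p under 0.05. The probes of most genes lie within 0.1 of each other, and those of Cox7c are 0.47 apart.

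Some member probes have a partner that reads the other strand. Over at least 20 bases, 11 pairs shared sequence as reverse complements, 9 of them at the same place and 2 elsewhere in the genome (Atp5h and Ndufb10). The partner was above background on all arrays in 6 pairs, on at least 7 arrays in 9 and on fewer in 2. Of the 9 partners that were tested, none passed in CR-L against WT. Atp5g2, a gene for the ring subunit c, and Uqcrb, a small subunit of complex III, show both outcomes, with the shared bases in capitals.
Atp5g2 A_44_P184527: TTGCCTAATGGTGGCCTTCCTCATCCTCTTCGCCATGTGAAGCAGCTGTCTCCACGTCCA
A_44_P435197: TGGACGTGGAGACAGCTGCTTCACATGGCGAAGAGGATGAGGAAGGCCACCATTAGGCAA
Uqcrb A_42_P668800: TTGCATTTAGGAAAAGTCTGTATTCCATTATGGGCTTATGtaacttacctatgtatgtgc
Uqcrb A_44_P160785: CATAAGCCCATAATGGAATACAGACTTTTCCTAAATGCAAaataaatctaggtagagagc
The Atp5g2 pair shares all 60 bases at chr7:141413022-141413081 (rn4), the named probe on the minus strand. Both were above background on 31 arrays, and between CR-L and WT they stood at -0.060 ± 0.042 and 0.070 ± 0.095. The Uqcrb pair shares 40 bases, with the first at chr7:67958447-67958506 on the minus strand and the second at chr7:67958467-67958526 on the plus strand. The first was above background on 31 arrays and differed by 0.089 ± 0.053 between CR-L and WT, while the second was above it on 1 array.

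Genes that serve the chain without being part of it were read from lists of the same pathway. Regulators of mitochondrial gene expression, which copy and transcribe mitochondrial DNA, had 5 of 22 tested probes (16 genes) higher in CR-L than in WT and 0 lower, beside 2.03% of all probes higher and 1.44% lower. Polg, the mitochondrial DNA polymerase, rose by 0.23 ± 0.044 (limma adjusted p = 0.0024), with arrays at -0.13 to 0.15 in CR-L, against -0.34 to -0.044 in WT, which overlapped. A second Polg probe stood at 0.16 ± 0.069 and did not pass (adjusted p = 0.224). Mterf1, which ends transcription after the ribosomal RNA genes in human cells, rose with both its probes, by 0.25 ± 0.053 and 0.23 ± 0.049. Mterf3 rose by 0.24 ± 0.047 and the transcription factor Tfb2m by 0.18 ± 0.049. The list median was 0.086 in CR-L against WT, beside 0.0094 over all probes.

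In CR against WT, 2 probes of the regulators passed, Mterf3 (0.21 ± 0.049, limma adjusted p = 0.0451) and Mterf1 (0.24 ± 0.055, adjusted p = 0.0370), beside 0.479% of all probes, and in CR-L against CR 0 passed, beside 0% of all probes. The count for CR against WT rested on single arrays, at 0 to 3 when each was left out and at 0 in 10 of those 31 runs (without WT 2 to 6 and without CR 3, 4, 6, 8 and 11), and it was 0 under 6 of 11 other settings. The count for CR-L against WT was 4 to 6 with single arrays left out. It was 3 with 1 probe per gene name, 2 with the authors' series table and with the blood cell covariates, and 1 with arrays scaled to each other. With replicate numbers as a block it was 0, in a fit of only 7 pairs of CR-L and WT arrays.

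Of the assembly factors 1 of 7 complex II probes and 3 of 25 complex IV probes passed in CR-L against WT, beside 3.47% of all probes. In CR against WT 1 of the 7 complex II probes passed, beside 0.479% of all probes. Sdhaf3, an assembly factor of complex II, was 0.33 ± 0.074 higher in CR-L (limma adjusted p = 0.0101) and 0.33 ± 0.076 higher in CR (adjusted p = 0.0414), each against WT; of the 4 factors it was the 1 that passed. A second Sdhaf3 probe stood at 0.25 ± 0.089 between CR-L and WT and did not pass (adjusted p = 0.123). The arrays of the first ranged from -0.19 to 0.55 in CR-L, from -0.071 to 0.34 in CR and from -0.50 to -0.064 in WT, so that a few overlapped. The call in CR did not hold under 9 of the 10 other settings that tested this probe, nor in 11 of 31 runs that left out an array (WT 2 to 6, CR 3 to 6, CR 8 and CR-L 7), and that in CR-L was lost with the blood cell covariates and with the replicate block. Of 25 complex IV assembly probes 3 passed in CR-L against WT, beside 3.47% of all probes: Coa4 was higher (0.43 ± 0.094), and 1 of 2 probes each of Cox11, which delivers copper, and Cox18, which inserts a core subunit into the membrane, was lower (-0.26 ± 0.069 and -0.22 ± 0.047). The other Cox11 probe stood at -0.080 ± 0.063 (limma adjusted p = 0.582) and the other Cox18 probe at -0.19 ± 0.056 (adjusted p = 0.0573). The count of 3 went from 2 to 5 with single arrays left out, and was 5 without WT 1, CR-L 5 or CR-L 10. In CR against WT it was 0, and 1 without CR 1. Of 24 citric acid cycle probes 1 passed, beside 3.47% of all probes. It reads Ogdh, a part of the 2-oxoglutarate dehydrogenase, and was higher (0.29 ± 0.065), while the other Ogdh probe stood on the opposite side at -0.28 ± 0.083 (limma adjusted p = 0.0584), so the gene has no settled direction. The count was 1 to 3 when single arrays were left out (3 without CR-L 10, and 2 without CR 1, CR 3, CR-L 3 or CR-L 5 to 8) and 0 with the blood cell covariates, the replicate block or 1 probe per gene name. No probe passed of the assembly factors of complexes I, III and V, of the electron carriers and quinone supply, or of the uncouplers and carriers, in CR-L or in CR against WT.

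Markers of blood cells were read as list means on each array. The mean of the B cell list was -0.16 ± 0.33 in CR-L, -0.093 ± 0.36 in CR and 0.050 ± 0.22 in WT (SD). Of its 17 probes 16 lay below 0 in CR-L against WT, where 54.2% of all probes lay above 0, and 0 were past the threshold. The granulocyte list averaged -0.043 ± 0.54 in CR-L, -0.095 ± 0.36 in CR and 0.17 ± 0.47 in WT, with 0 of 15 probes past it. Of these probes 12 lay below 0 in CR-L against WT and 14 in CR against WT, where 54.2% and 55.3% of all probes lay above 0. The erythroid list averaged -0.042 ± 0.66 in CR-L, -0.37 ± 0.65 in CR and -0.31 ± 0.33 in WT. Of its 25 probes 22 lay above 0 in CR-L against WT, beside 54.2% of all probes. One probe, that of Gypc, was past the threshold and higher (limma adjusted p = 0.0490), beside 3.47% of all probes. The platelet list averaged -0.35 ± 1.06 in CR-L, 0.016 ± 0.38 in CR and -0.35 ± 0.55 in WT. Of its 14 probes 14 lay above 0 in CR against WT (all probes 55.3%), 7 in CR-L against WT (all probes 54.2%) and 0 in CR-L against CR (all probes 46.6%). In each comparison 0 passed. No probe of the T cell, NK cell and monocyte lists passed. In CR-L against WT 14 of 19 T cell probes and 10 of 11 NK cell probes lay above 0, and 12 of 16 monocyte probes lay below 0. All probes of these 3 lists and of the B cell list were above background on all arrays.

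Promoters of the subunit genes were searched in the 250 bases before and 50 bases after the start, on both strands, in RefSeq's GRCr8 assembly, where 64 of 75 subunit genes were matched. The motif of NRF1, an activator of respiratory genes, spelled GCGCA and GCGC with any 1 base between them, stood in 13 (20.3%) of them, against 4.71% of all 27457 promoters. CCGGAAG, of the ETS family to which NRF2/GABP belongs, stood in 19 (29.7%), against 9.22%. AAGATGGC, a YY1 motif, stood in 14 (21.9%), against 3.44%. The ETS and YY1 motifs can overlap by the letters AAG. The NRF1 motif was found in 7 of 29 promoters of complex I, 1 of 4 of complex II, 1 of 6 of complex III, 0 of 12 of complex IV and 4 of 13 of complex V. These are matches of letters in a window and no measurement of binding.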

How the data were processed

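RNA of 31 rat samples was hybridized on 2-colour Agilent arrays, 1 per sample. The authors deposited the scanner output of every array, which holds, per the file headers, the intensity of spots and of their local background and a log10 ratio of red over green. It was made with Agilent Feature Extraction 10.7.3.1, per the submitters' processing notes. The authors also deposited log2 values of all samples in 1 table. It tracked log2 red intensity (correlation at least 0.993), every column had a median of 8.17, and its further normalization is not given in the sources used here.

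Using limma 3.58.1 in R 4.3.3, mean intensities had their background removed by normexp (offset 50) and were normalized by loess within arrays. Of 45018 spots, 1639 were controls; outlier spots (0.408% of values) were left out and spots of a probe averaged. Probes well above background in red on at least 7 arrays were tested (26716), with 1 fit over all 31 arrays, two-sided, and Benjamini-Hochberg adjustment at 0.05. Differences are log2 ± SE with 95% intervals. The tests were checked on simulated data. The number of arrays limits the precision.

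Members and lists were chosen with earlier results of these data known. Named members are those past the threshold, the smallest p per complex (3, 2 and 1 for CR-L against WT, CR against WT and CR-L against CR), all of complex II, tissue isoforms with their partners, genes whose probes disagree and the 3 genes with the largest SD. Ndufa1, Ndufs1, Ndufv1, Ndufaf4, Ndufaf7, Uqcrq, Cox7a2l, Cox7b2, Atp5a1, Atp5c1 and Atp5e were added after their values were seen. Named genes of the other lists are those past the threshold.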

Additional observations from a re-analysis of the deposited data

Results flagged for a closer look

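In the 7 WT arrays, 6 of 36 checked values had 1 array far from the others by Dixon's criterion, which chance meets about 1 time in 20; CR and CR-L, with more than 10 arrays, were not checked. WT 7 held 4 of the 6. Uqcr10 was at 0.40 there, with the nearest WT array at 0.15, and Atp5d at 0.21, with the nearest at 0.02. Uqcrc1 was at -0.42, with the nearest at -0.13, and the first Atp5sl probe at -0.51, with the nearest at 0.01. Ndufv2 was at 0.12 on WT 3, where the nearest was at -0.04. The second Cox6a2 probe, A_44_P376112, was at 0.40 on WT 6, with the nearest at 0.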

How the results depend on the processing

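In all, 11 alternatives were run beside leaving out each of the 31 arrays. The 1 member past the threshold in CR-L against WT became 2 with the red channel alone (with Cox5b at -0.22, adjusted p = 0.0297), 2 with probes above background on all arrays (with Ndufs6) and 2 with slide as a block (with Uqcrfs1), and 0 with the blood cell lists as covariates. Leaving out single arrays gave 1 to 2, with Atp5sl added without WT 7 and Ndufs6 without CR-L 1. The cause was not tested. In CR against WT and CR-L against CR the count was 0 throughout. The lower Cox7c probe kept its direction, at -0.51 to -0.39 over the alternatives (adjusted p 0.00321 to 0.0735) and -0.48 to -0.41 with single arrays left out (adjusted p 0.00147 to 0.0134). The member medians moved by less than the spread between arrays (0.031) and turned sign in 7, 2 and 3 of 11 alternatives for CR-L against WT, CR against WT and CR-L against CR.

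Replicate numbers are shared between groups. Deviations of arrays with the same number correlated at -0.15 to 0.37 for CR-L and WT, -0.22 to 0.15 for CR and WT and -0.43 to 0.43 for CR-L and CR, so the numbers were not taken as pairs. With the replicate block 1 member passed in CR-L against WT, 0 in CR against WT and 0 in CR-L against CR, and over all probes 232 in CR-L against WT, against 927 without the block, and 0 in CR against WT, against 128. Over the 11 alternatives the count of all probes was 232 to 1068 for CR-L against WT and 0 to 204 for CR against WT. With single arrays left out it was 492 (without WT 4) to 1292 (without CR-L 10) for CR-L against WT and 20 (without WT 4) to 245 (without CR 9) for CR against WT. It moved by over 1.5 times without WT 2, 4, 5 or 6 in CR-L against WT, and in CR against WT without those and without CR 1, 3, 4, 6 to 9 or CR-L 5 or 10. With the red channel alone 28 were higher and 29 lower in CR against WT, against 100 and 28. Scan date was not run as a block because all arrays share 1 scan day.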
